A study of Mus musculus with 7 samples.

Results

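The 9 genes described here encode transcription factors and nuclear regulators of the immediate early response: Fos and Fosb of the Fos family, Jun, Junb and Jund of the Jun family, Atf3, Egr1, Ier2 and Nr4a1. They were chosen by name, and all 9 were found among the 17422 genes listed for every library. RNA-seq was run on 7 mouse libraries, namely 3 high-grade gliomas with the label PDGF-B, 3 with the label EGFRvIII and 1 neural progenitor culture, also with the label PDGF-B. All cells started as neural precursors of day 14 Balb/c embryos, grown on Matrigel with B27 supplement and with human bFGF and EGF (10 ng/ml), and all were collected by sorting for the fluorescent protein DsRed. The PDGF-B-labelled gliomas and the culture came from wild type cells given retroviral vectors for PDGF-B, a growth factor, and DsRed. The EGFRvIII-labelled ones came from Ink/Arf -/- cells, which lack a tumour suppressor locus, given vectors for EGFRvIII, a constitutively active form of the EGF receptor, and DsRed. After 10 days, 20000 transduced cells were placed in the brain of adult BALB/c mice, and tumours were taken out and dissected when the first neurological symptoms appeared. The oncogene and the Ink/Arf genotype differ together between the glioma groups and cannot be told apart. The hosts kept their own genotype, so host cells in a tumour carry neither the vectors nor the Ink/Arf deletion, and the sources used here name neither the promoter that drives the transgenes nor the dissociation steps.

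Immediate early genes are transcribed within minutes of a growth factor, calcium or stress signal, before any new protein is made, and their messages decay quickly. Fos and Jun proteins pair through leucine zippers to form AP-1, which binds TGANTCA sites, and ATF3, a member of the ATF/CREB family induced by stress, can pair with Jun proteins. In the brain these genes report neuronal activity and glial growth factor signalling, and they are known to be induced during enzymatic tissue dissociation, in microglia above all.

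Recovered reads per library ran from 32513754 to 39062584. The driver genes went against the labels. Egfr was at 4952, 5109 and 3594 CPM (reads scaled to a common library size) in the 3 PDGF-B-labelled gliomas, at 41.2, 26.9 and 25.6 CPM in the EGFRvIII-labelled ones and at 282 CPM in the culture. Pdgfb was at 1.95, 2.97 and 4.88 CPM in the PDGF-B-labelled gliomas, at 386, 284 and 277 CPM in the EGFRvIII-labelled ones and at 245 CPM in the culture. Cdkn2a, a gene of the Ink/Arf locus, was at 3.52, 2.94 and 4.99 CPM in the wild type, PDGF-B-labelled gliomas, lower (limma adjusted p 0.0318) than its 22.7, 26.1 and 11.1 CPM in the Ink/Arf -/-, EGFRvIII-labelled ones, and at 10.7 CPM in the culture. Its neighbour Cdkn2b was not called, at 30.2 ± 11.5 and 34.5 ± 16.8 CPM (SD, n = 3). The labels do not say which exons were deleted. Every direction between the glioma groups below therefore runs between libraries as labelled, and whether the labels of those groups are exchanged could not be settled from these files. The culture carries the same PDGF-B label as the gliomas low in Pdgfb. Microglial and macrophage markers differed as well. The 22 genes of that list summed to 733 to 2594 CPM in the PDGF-B-labelled gliomas, 9258 to 19971 CPM in the EGFRvIII-labelled ones and 109 CPM in the culture.

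Promoter sequence was available from RefSeq (GRCm38.p6) for 7 of the 9 genes, and the 250 bases before the annotated start are printed for the 5 genes whose windows hold a CRE core, TGACG or its reverse complement, and for Jun. They are shown because a CRE is a site through which cAMP signals are known to reach immediate early genes. Capitals mark each match on either strand. In Jun they mark TGACATCA, the one match to TGACNTCA, a CRE-like site that Jun and ATF proteins can bind. The sequence is that of the reference strain, not of Balb/c. The windows are chr1:191183334-191183583 on the minus strand for Atf3, chr8:84978749-84978998 on the minus strand for Junb, chr12:85473640-85473889 on the plus strand for Fos, chr7:19310046-19310295 on the minus strand for Fosb, chr15:101266596-101266845 on the plus strand for Nr4a1 and chr4:95052223-95052472 on the minus strand for Jun. Those of Atf3 and Nr4a1 lie inside the gene as annotated, downstream of the start of longer transcripts. The window of Jund, which is counted below but not shown, lies before a RefSeq start well upstream of the start used here, so it does not describe the latter.
Atf3: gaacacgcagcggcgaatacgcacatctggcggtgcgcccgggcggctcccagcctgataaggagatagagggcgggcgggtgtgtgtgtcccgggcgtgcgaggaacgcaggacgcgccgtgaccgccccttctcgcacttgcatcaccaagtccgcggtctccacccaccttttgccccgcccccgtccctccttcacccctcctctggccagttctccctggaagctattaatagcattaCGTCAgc
Junb: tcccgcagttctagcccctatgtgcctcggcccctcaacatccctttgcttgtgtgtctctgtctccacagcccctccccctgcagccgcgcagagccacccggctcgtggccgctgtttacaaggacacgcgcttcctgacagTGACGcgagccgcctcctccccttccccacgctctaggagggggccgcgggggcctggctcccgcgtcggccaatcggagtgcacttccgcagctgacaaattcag
Fos: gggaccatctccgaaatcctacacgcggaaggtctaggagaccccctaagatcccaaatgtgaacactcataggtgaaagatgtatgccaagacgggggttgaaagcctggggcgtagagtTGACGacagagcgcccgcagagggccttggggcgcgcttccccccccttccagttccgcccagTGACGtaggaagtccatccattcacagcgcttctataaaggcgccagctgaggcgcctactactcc
Fosb: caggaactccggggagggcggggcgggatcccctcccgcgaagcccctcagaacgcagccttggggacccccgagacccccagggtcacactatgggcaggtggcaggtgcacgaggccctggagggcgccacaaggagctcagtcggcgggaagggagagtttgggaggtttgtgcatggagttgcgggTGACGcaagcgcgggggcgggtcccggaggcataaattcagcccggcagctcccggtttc
Nr4a1: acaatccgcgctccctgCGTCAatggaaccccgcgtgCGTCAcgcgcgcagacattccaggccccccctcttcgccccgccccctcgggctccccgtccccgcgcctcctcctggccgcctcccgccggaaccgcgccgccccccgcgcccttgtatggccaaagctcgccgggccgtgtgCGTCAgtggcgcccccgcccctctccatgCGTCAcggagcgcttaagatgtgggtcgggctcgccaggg
Jun: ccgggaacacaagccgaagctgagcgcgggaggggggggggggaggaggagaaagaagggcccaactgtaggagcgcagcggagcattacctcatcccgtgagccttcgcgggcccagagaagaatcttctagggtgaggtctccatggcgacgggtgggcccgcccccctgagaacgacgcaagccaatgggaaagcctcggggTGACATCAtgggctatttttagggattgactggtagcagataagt
The CRE core was in 5 of the 7 windows and in 17.8% of the 32851 RefSeq windows of the same length. Fos held 2 copies and Nr4a1 held 4, and the Atf3 copy ends at base -3 from the start. TGACNTCA was in 1 of 7 windows and 7.49% of all, the AP-1 site TGANTCA in 0 of 7 and 6.75% of all, and the CArG box bound by SRF in 0 of 7 and 1.47% of all. The letters TGACG can overlap a longer CRE, so these searches are not independent. Bases further upstream were not searched, nor were the promoters of Egr1 and Ier2, which had no entry, so sites there would be missed.

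Most of the 9 genes were abundant in every library. On a per-length scale (CPM per kilobase of the longest coding transcript), Fos ranked 62 among 14046 coding genes in the library labelled PDGF-B replicate 2, and Egr1 ranked 63 in the culture. Atf3 was the least abundant member in the PDGF-B-labelled gliomas and in the culture. There it stood at 4.77, 11.3 and 8.86 CPM per kb in the 3 gliomas and 3.83 CPM per kb in the culture, against 61.5, 96.1 and 43.6 CPM per kb in the EGFRvIII-labelled gliomas. Its rank ran from 9046 in the culture to 697 in the library labelled EGFRvIII replicate 2.

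The order of mean CPM per kb in the PDGF-B-labelled gliomas was Fos at 189 ± 114 (SD, n = 3), Egr1, Jun, Fosb, Junb, Nr4a1, Jund, Ier2 and last Atf3 at 8.29 ± 3.28 (SD, n = 3). Each neighbouring pair in that order overlapped between libraries, apart from Ier2 and Atf3. In the EGFRvIII-labelled gliomas the order was Fos at 267 ± 47.7 (SD, n = 3), Egr1, Junb, Jun, Fosb, Atf3, Ier2, Nr4a1 and Jund at 36.9 ± 4.85 (SD, n = 3). There only Fos against Egr1 and Nr4a1 against Jund did not overlap. Egr1 led in the culture at 427 CPM per kb, followed by Fos, Fosb, Jun, Ier2, Junb, Nr4a1, Jund and Atf3. With the length of all exons of a gene in place of the longest coding transcript, mean Fosb came below Junb in the PDGF-B-labelled gliomas and below Atf3 and Ier2 in the EGFRvIII-labelled ones, mean Junb came below Jun in the latter, mean Nr4a1 came below Jund in both groups, and Nr4a1 and Jund then overlapped. On that scale Fos and Egr1 overlapped in the EGFRvIII-labelled gliomas as well. The place of Jund is uncertain on either scale, since a second entry holds identical values. With both entries summed, Jund per kilobase of the longest coding transcript averaged 60.5 ± 26.0 (SD, n = 3) in the PDGF-B-labelled gliomas, above Junb and Nr4a1, and 73.7 ± 9.69 (SD, n = 3) in the EGFRvIII-labelled ones, above Fosb, Atf3, Ier2 and Nr4a1.

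**Figure D1:**
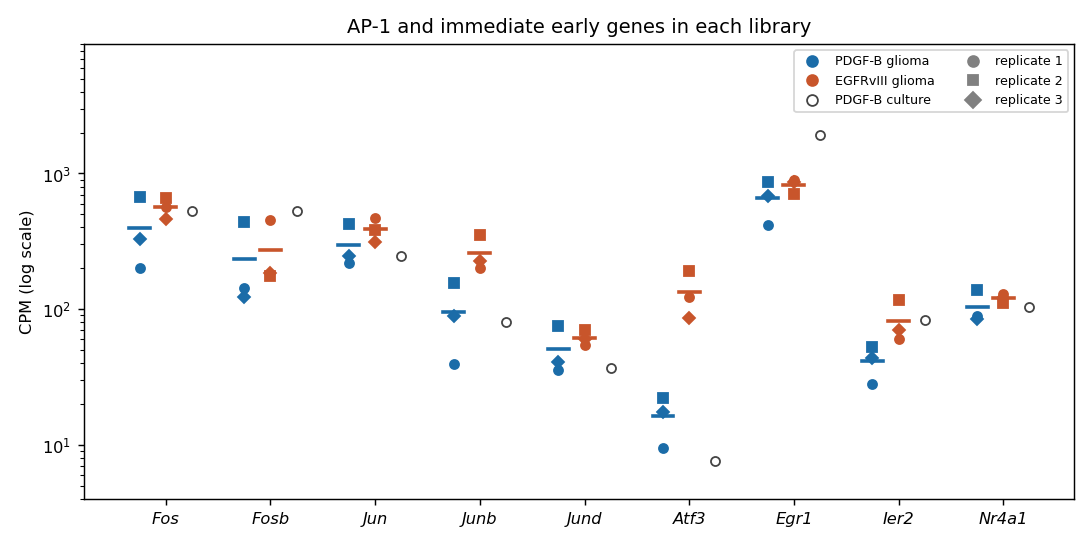
CPM of the 9 genes in each library on a log axis, with 1 point for each library and a bar at the mean of the 3 gliomas of a group. The groups are apart for Atf3, Junb and Ier2, and the culture is highest for Egr1 and Fosb.

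The comparison of the glioma groups asks how the immediate early genes differ between the tumour models. Atf3 passed the test and was lower in the PDGF-B-labelled gliomas. All 9 means on the log2 scale were lower in that group, as were 50% of all genes. The libraries of the groups did not overlap for Atf3, Junb and Ier2, all lower in the PDGF-B-labelled gliomas, which is 3 of 9 beside 12.6% of all genes in that direction. By limma at an adjusted p of 0.05, 1 of 9 was called, beside 3.35% of all genes in either direction and 2.63% lower. In bulk RNA, fewer cells that express a gene and less RNA per cell cannot be told apart, and markers of host cells such as microglia were present in these libraries.

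Atf3 (ENSMUSG00000026628, chromosome 1, 191170296 to 191218039 of GRCm38) was at 9.47, 22.3 and 17.6 CPM in the PDGF-B-labelled gliomas and at 122, 191 and 86.5 CPM in the EGFRvIII-labelled ones. Every library of the latter group was several times higher than any of the former. The log2 fold change (labelled PDGF-B minus labelled EGFRvIII) was -3.02 ± 0.39 (SE), with an adjusted p of 0.0245 by limma. Leaving out PDGF-B replicate 1 or 2, or EGFRvIII replicate 1, 2 or 3, ended the call of Atf3, with limma adjusted p values of 0.0871, 0.0591, 0.0702, 0.0973 and 0.0894, while without PDGF-B replicate 3 it was 0.0105. The log2 fold change stayed between -3.30 and -2.67 in these 6 fits. The count of all genes called moved from 583 to between 4 and 21 in the 5 fits that lost Atf3 and to 1282 without PDGF-B replicate 3, and the counts for gene lists below rest on the fit of all 6 gliomas.

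Junb (ENSMUSG00000052837, chromosome 8, 84974484 to 84978718), a Jun protein that can restrain as well as drive AP-1 transcription, was at 39.3, 156 and 89.5 CPM in the PDGF-B-labelled gliomas. It reached 199.6, 351 and 225 CPM in the EGFRvIII-labelled ones, and the groups did not overlap. The log2 fold change of -1.61 ± 0.49 had a limma adjusted p of 0.147, so it did not pass. Ier2 (ENSMUSG00000053560, chromosome 8, 84661331 to 84662852), a small nuclear protein of the growth factor response, was at 28.1, 52.3 and 43.9 CPM and 60.0, 116 and 70.8 CPM in the same order. Its lowest library labelled EGFRvIII stood just above the highest labelled PDGF-B. The log2 fold change was -0.98 ± 0.32 and the limma adjusted p was 0.182. At an unadjusted p under 0.05, there were 3 of 9 genes (Atf3, Junb and Ier2) beside 16.7% of all genes.

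Fos (ENSMUSG00000021250, chromosome 12, 85473890 to 85477273) was at 202, 666 and 327 CPM in the PDGF-B-labelled gliomas and 569, 659 and 458 CPM in the EGFRvIII-labelled ones. PDGF-B replicate 2 was the highest of all 7 libraries and PDGF-B replicate 1 the lowest. The log2 fold change was -0.65 ± 0.42 with a limma adjusted p of 0.476. Fosb (ENSMUSG00000003545, chromosome 7, 19302696 to 19310051), whose spliced product is known to persist after repeated stimulation, was at 142, 436 and 123 CPM and 455, 177 and 184 CPM. In each glioma group 1 library, PDGF-B replicate 2 and EGFRvIII replicate 1, stood well above the other two. The log2 fold change of -0.32 ± 0.56 (limma adjusted p 0.784) was the one with the widest SE of the 9. Its sign turned without PDGF-B replicate 3, to 0.02, or EGFRvIII replicate 1, to 0.13.

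Jun (ENSMUSG00000052684, chromosome 4, 95049034 to 95052222), the main partner of Fos, was at 221, 423 and 247 CPM and 471, 384 and 310.3 CPM in the 2 groups. Jund (ENSMUSG00000071076, chromosome 8, 70698949 to 70700616), the most constitutive Jun gene, was at 35.5, 75.4 and 40.5 CPM and 54.0, 70.1 and 60.4 CPM. Both groups overlapped for both genes, and PDGF-B replicate 2 was inside or above the range of the EGFRvIII-labelled gliomas. The log2 fold changes were -0.43 ± 0.30 for Jun and -0.36 ± 0.30 for Jund, with limma adjusted p values of 0.507 and 0.573. The second entry, ENSMUSG00000110974 of Ensembl, which is not in the annotation used here, holds the same value as Jund in all 7 libraries, so reads may have been shared between both entries and the level of Jund is uncertain. Both entries summed to 71.1, 151 and 81.0 CPM in the PDGF-B-labelled gliomas, 108, 140.2 and 121 CPM in the EGFRvIII-labelled ones and 73.9 CPM in the culture.

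Egr1 (ENSMUSG00000038418, chromosome 18, 34859823 to 34864984), a zinc finger factor downstream of ERK signalling, was at 416, 872 and 683 CPM in the PDGF-B-labelled gliomas and 896, 708 and 865 CPM in the EGFRvIII-labelled ones. Nr4a1 (ENSMUSG00000023034, chromosome 15, 101254269 to 101274795), an orphan nuclear receptor, was at 88.9, 139 and 84.7 CPM and 129, 111 and 121 CPM. The groups overlapped for both. The log2 fold changes of -0.38 ± 0.30 and -0.25 ± 0.23 had limma adjusted p values of 0.555 and 0.606. Jun overlaps the antisense gene Junos, Junb the opposite-strand gene Prdx2, Jund the antisense gene Gm11175 and Atf3 the small RNA gene Gm24748. No source used here gives the strandedness of the counting, so reads of such pairs cannot be told apart.

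**Figure D2:**
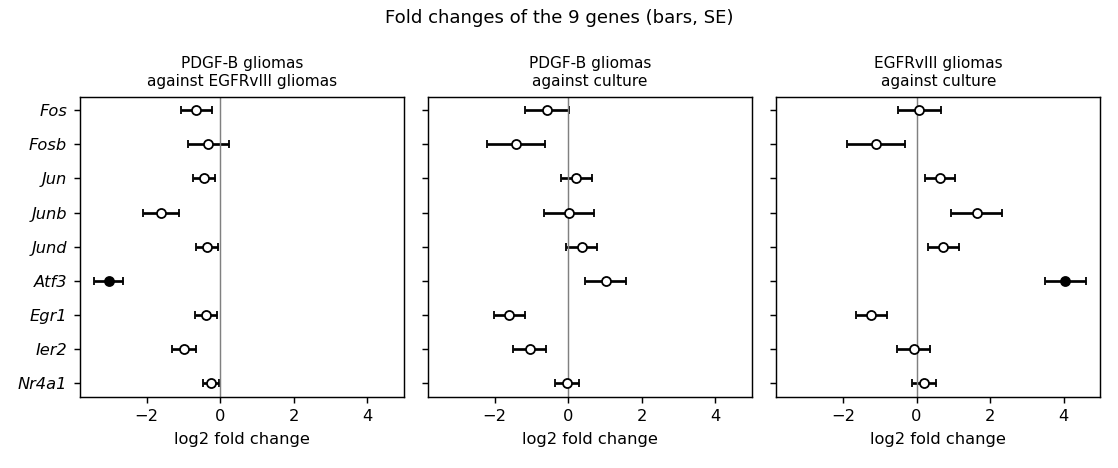
Log2 fold changes of the 9 genes with their SE in the 3 comparisons, as labelled groups, from limma, with filled symbols for genes called at an adjusted p of 0.05. All 9 lie below 0 between the glioma groups, and Atf3 is the called gene there and between the EGFRvIII-labelled gliomas and the culture.

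For 8 of the 9 genes, all but Ier2, the highest library stood further above the lowest among the PDGF-B-labelled gliomas than among the EGFRvIII-labelled ones. The share of all genes with this pattern was not counted, so whether it is particular to the 9 genes cannot be told. From the lowest to the highest of the 3, Junb spanned 3.97-fold, Fosb 3.54-fold and Fos 3.29-fold. Replicate 2 was the highest of the group for 9 of 9 genes, beside 35.2% of all genes, and replicate 1 the lowest for 7 of 9, beside 28.3%. That replicate 2 also had the fewest transcripts of the proliferation genes Mki67, at 64.6 CPM, and Top2a, at 26.4 CPM, which were looked up after the values were seen. The other 5 gliomas had Mki67 at 285 to 554 CPM. The role of proliferation in the order of these genes was not tested.

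Among the EGFRvIII-labelled gliomas, replicate 2 was highest for Fos, Junb, Jund, Atf3 and Ier2, beside 41.1% of all genes. Replicate 1 was highest for Fosb, Jun, Egr1 and Nr4a1, beside 29.8%, and replicate 3 for none, beside 29.1%. Over the 6 gliomas, Pearson's r of log2 CPM was above 0 for 36 of 36 pairs of the 9 genes, from 0.181 to 0.965 with a median of 0.777. The libraries behind these r values share the group difference, so they are a description. With the culture added, 34 of 36 were above 0. Pairs among all genes were not counted, so whether these values are particular to the 9 genes cannot be told.

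**Figure D3:**
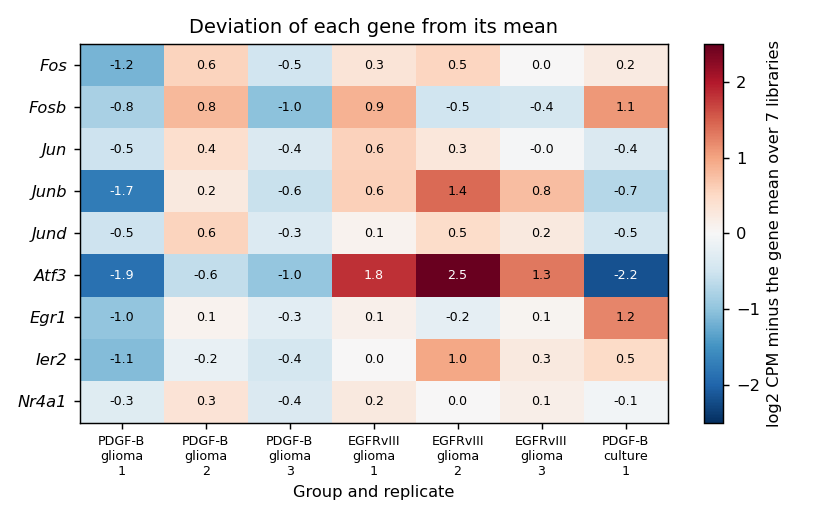
Deviation of each gene's log2 CPM in a library from its mean over the 7 libraries, with genes in rows and libraries in columns. The library labelled PDGF-B replicate 1 is low for most genes, and the culture is high for Egr1 and Fosb and low for Atf3.

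The make-up of the AP-1 messages differed between the culture and the gliomas. Per kilobase, the summed Jun family (Jun, Junb, Jund) was 0.840, 0.613 and 0.806 times the summed Fos family (Fos, Fosb) in the PDGF-B-labelled gliomas. The ratio was 0.744, 0.992 and 0.969 in the EGFRvIII-labelled ones and 0.369 in the culture, below all 6 gliomas. Fosb made up 26.2% of the pool of these 5 messages in the culture and 6.52% to 17.7% in the gliomas. With a single culture library these values have no replicate check.

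Junb made up 8.84, 12.4 and 14.6% of that pool in the PDGF-B-labelled gliomas and 16.2, 27.1 and 23.7% in the EGFRvIII-labelled ones, and the groups did not overlap. The ratio of Junb to Jun per kilobase of the longest coding transcript was above 1 only in EGFRvIII replicates 2 and 3, at 1.61 and 1.28, against 0.747 in replicate 1 and 0.314, 0.650 and 0.639 in the other group. Atf3 relative to Fos was 0.0497, 0.0356 and 0.0571 in the PDGF-B-labelled gliomas, 0.228, 0.307 and 0.201 in the EGFRvIII-labelled ones and 0.0153 in the culture. The 3 sets of ratios did not overlap.

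**Figure D4:**
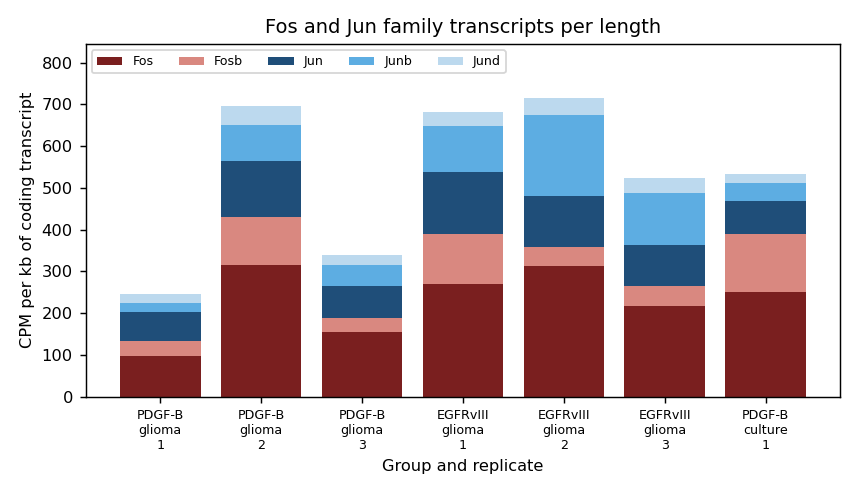
CPM per kilobase of the longest coding transcript of the 5 Fos and Jun family genes, stacked in one bar for each library. Bars show levels, not shares, so their heights differ. The culture has the most Fosb and the EGFRvIII-labelled gliomas the most Junb.

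Against the culture, the question is which of the genes differ between a tumour and progenitors with the same transgene, by the labels, before grafting. The PDGF-B-labelled gliomas and the culture share that label, and their values were set against the 1 culture library, which limma had to assume to vary like the gliomas. No member was called (0 of 9 by limma, 0 of 9 with voom weights and 1 of 9 at an unadjusted p under 0.05), beside 9.45% of all genes. At that unadjusted p stood 27.2% of all genes. The 1 member was Egr1, at 1914 CPM in the culture, above every glioma. Its log2 fold change (PDGF-B-labelled gliomas minus culture) was -1.61 ± 0.43 with a limma adjusted p of 0.0590.

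Fosb stood at 529 CPM in the culture, also above every glioma, with a log2 fold change of -1.43 ± 0.79 and a limma adjusted p of 0.283. Ier2 was at 83.2 CPM in the culture, above all 3 PDGF-B-labelled gliomas, and its log2 fold change of -1.05 ± 0.45 had a limma adjusted p of 0.188. Thus 3 of 9 genes were lower in all 3 of these gliomas than in the culture, beside 38% of all genes. Atf3, at 7.61 CPM in the culture, was higher in all 3, as were 40.9% of all genes, with a log2 fold change of 1.02 ± 0.56 and a limma adjusted p of 0.277. Fos (528 CPM), Jun (246 CPM), Junb (80.9 CPM), Jund (37.0 CPM) and Nr4a1 (104 CPM) had culture values inside the range of the PDGF-B-labelled gliomas. The signs of Junb and Nr4a1 turned with the scaling, and those of Jun, Junb and Nr4a1 with the library left out.

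The EGFRvIII-labelled gliomas carry, by their labels, another transgene and genotype than the culture, so what differs between them cannot be told apart. Here 1 of 9 genes was called by limma, Atf3, beside 9.55% of all genes in either direction and 8.2% higher. Its log2 fold change (EGFRvIII-labelled gliomas minus culture) was 4.04 ± 0.56 with a limma adjusted p of 0.00497. Jun, Junb, Jund, Atf3 and Nr4a1 were higher in all 3 of these gliomas than in the culture, 5 of 9 beside 34.1% of all genes. Fosb and Egr1 were lower in all 3, 2 of 9 beside 29.6%. Of these, Junb had a log2 fold change of 1.63 ± 0.69 and a limma adjusted p of 0.204, and Egr1 one of -1.23 ± 0.43 and a limma adjusted p of 0.130.

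Both comparisons share the culture library and are not independent. Over all 6 gliomas, Fosb and Egr1 were below the culture in each, 2 of 9 beside 24% of all genes, and Atf3 was above it in each, 1 of 9 beside 27.8%. Grafting, host cells, time and handling differ between the gliomas and the culture and cannot be told apart.

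Other genes of the same response were read from fixed lists. By limma at an adjusted p of 0.05, 2.63% of all genes were lower in the PDGF-B-labelled gliomas than in the EGFRvIII-labelled ones. Of 32 further immediate early genes, 5 were lower and 0 higher, and their median log2 fold change was -0.72 beside -1.48e-04 over all genes. The 4 with the smallest p were Egr2, a paralog of Egr1 (23.2 ± 2.26 against 59.6 ± 14.2 CPM, mean ± SD, n = 3 each), Ier5 (19.4 ± 2.65 against 46.0 ± 6.92 CPM), Btg2, an antiproliferative factor (12.4 ± 5.42 against 62.4 ± 19.4 CPM), and Zfp36, which destabilises cytokine messages (47.2 ± 24.2 against 273 ± 96.9 CPM). The limma adjusted p values of the 4 were 0.0303, 0.0309, 0.0315 and 0.0344. The fifth, named after its value was seen, was Klf2.

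Among further AP-1 family genes, Maf (15.2 ± 8.36 against 64.1 ± 18.1 CPM), which is also known as a macrophage transcription factor, was lower, with a limma adjusted p of 0.0411. Among 15 measured AP-1 target genes, Plau (7.69 ± 6.38 against 45.4 ± 6.91 CPM), a secreted protease, and Hmox1 (43.9 ± 22.6 CPM against 314, 2380.0 and 553 CPM in the 3 EGFRvIII-labelled libraries), which degrades haem, were lower, with limma adjusted p values of 0.0349 and 0.0344. The median of that list was -2.39, and 2.63% of all genes were called lower.

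Upstream of the members, 1 of 11 kinases and regulators that act on Jun and Fos was lower, Rps6ka1 (9.65 ± 6.33 against 55.3 ± 16.4 CPM, limma adjusted p 0.0312), a kinase downstream of ERK. The median of these 11 genes was 0.02, and 2.63% of all genes were called lower. None of 8 genes for SRF, its ternary complex factors and CREB was called between the glioma groups (0 by limma, 0 with voom weights and 0 at an unadjusted p under 0.05). The most abundant of them, Creb1, was at 119 ± 1.50 and 114 ± 7.89 CPM.

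Compared with the culture, the PDGF-B-labelled gliomas had 1 of the 32 immediate early genes higher, Rhob, and 3 lower, Ccn1, Arc and Btg2. Of all genes, 9.45% were called in either direction in that comparison. Rhob, a small GTPase, was at 269 ± 43.2 CPM (SD, n = 3) in these gliomas and 114 CPM in the culture. The EGFRvIII-labelled ones had 5 higher, of which Rhob, Klf2, Gadd45b and Socs3 had the smallest p, and 2 lower, Ccn1 and Arc. The shares of all genes there were 9.55% in either direction and 8.2% higher. Ccn1, a matrix protein induced by serum, was at 50.1 ± 15.8 CPM (SD, n = 3) in the PDGF-B-labelled gliomas, 41.3 ± 9.79 CPM (SD, n = 3) in the EGFRvIII-labelled ones and 295 CPM in the culture. Arc, an activity-induced synaptic gene, was at 11.2 ± 1.08, 9.69 ± 2.12 and 44.2 CPM in the same order. Their limma adjusted p values were 0.00917 and 0.0166 for the PDGF-B-labelled gliomas and 0.00500 and 0.00906 for the EGFRvIII-labelled ones. Like Egr1 and Fosb, both stood highest in the culture. The median log2 fold change of the 32 genes was -0.65 for the PDGF-B-labelled gliomas, beside 0.037 over all genes, and 0.32 for the EGFRvIII-labelled ones, beside 0.013. The calls named here are by limma, and voom weights gave fewer, 2 and 4 of the 32 in the same order.

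Further calls against the culture were few in the other pathway lists. Batf, an AP-1 family gene, was at 0 reads in the culture and higher in the EGFRvIII-labelled gliomas, at 2.65 ± 2.15 CPM. By limma, Mapk10, the neuronal JNK, was higher in both glioma groups and Rps6ka1 in the EGFRvIII-labelled ones, as were the AP-1 target genes Plau, Mmp12, Fn1 and Hmox1, 4 of 15. Of all genes, 9.45% were called for the PDGF-B-labelled gliomas and 9.55% for the EGFRvIII-labelled ones, in either direction. With voom weights, 1 of the 11 kinases and regulators was called for the PDGF-B-labelled gliomas and 0 for the EGFRvIII-labelled ones. Of the 15 AP-1 target genes, voom weights gave 2 calls for the EGFRvIII-labelled gliomas. Of the genes for SRF and its partners, 0 of 8 was called by limma or with voom weights against the culture, and 1 of 8 had an unadjusted p under 0.05 in each comparison.

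Microglial content moved with the difference between the glioma groups. Of the 22 microglia and macrophage markers, 19 were lower in the PDGF-B-labelled gliomas by limma at an adjusted p of 0.05. The share of all genes was 2.63%. The most abundant markers, Lyz2 and C1qa, were at 218 ± 342 and 119 ± 87.2 CPM (SD, n = 3) in those gliomas and at 1655 ± 777 and 1592 ± 1200.2 CPM in the EGFRvIII-labelled ones. In the culture 6 of 22 markers, P2ry13, C1qb, Trem2, Tyrobp, Fcrls and Siglech, were at 0 reads, and Sall1, which neural progenitors express too, gave 86.1 of the summed 109 CPM. That culture had 528 CPM of Fos, 529 CPM of Fosb and 1914 CPM of Egr1.

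Genes that microglia are known to induce during isolation, 10 in all, summed to 79.8 to 184 CPM in the PDGF-B-labelled gliomas, 551 to 1488 CPM in the EGFRvIII-labelled ones and 45.1 CPM in the culture. By limma 5 of 10 were lower in the PDGF-B-labelled gliomas, beside 2.63% of all genes. Among the 5 was Ccl3 at 12.7 ± 6.74 against 131 ± 99.3 CPM. Per 1000 CPM of the summed microglial markers, Atf3 was at 12.9, 22.8 and 6.77 CPM in the PDGF-B-labelled gliomas and 12.7, 9.55 and 9.35 CPM in the EGFRvIII-labelled ones, so the groups overlapped. The other 8 genes, Fos at 276, 679 and 126 CPM against 59.2, 33.0 and 49.5 CPM among them, were then higher in the PDGF-B-labelled gliomas with no overlap, as were 92% of all genes on that scale, whose divisor itself does not overlap between the groups. Within the PDGF-B-labelled gliomas the order differed: replicate 3 had the most microglial transcripts and replicate 2 the most of all 9 genes. Which cells hold the transcripts was not tested.

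**Figure D5:**
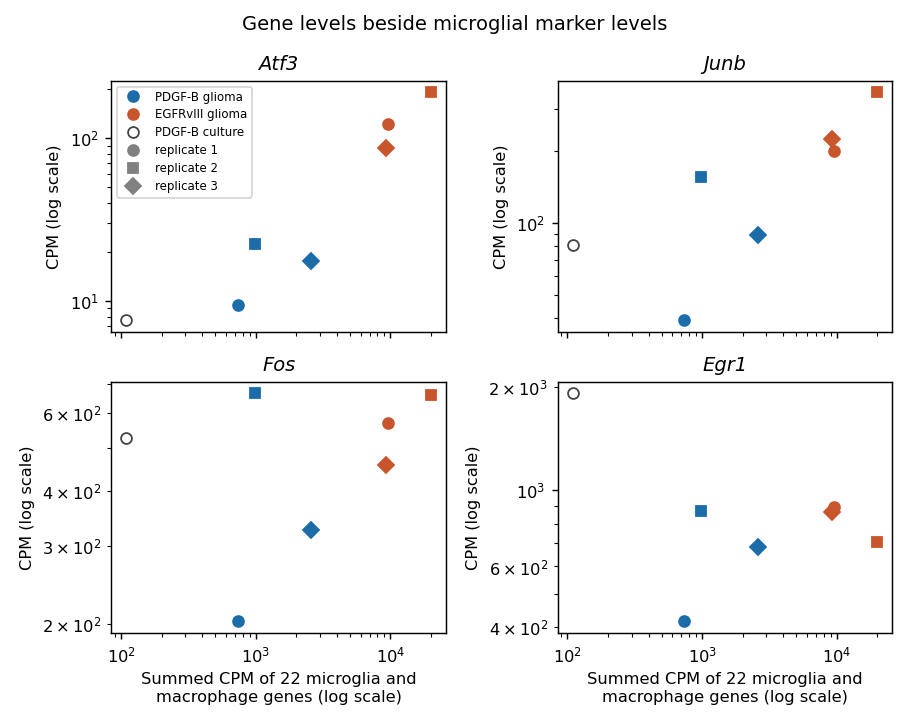
CPM of Atf3, Junb, Fos and Egr1 in each library against the summed CPM of the 22 microglia and macrophage markers, both on log axes. Atf3 and Junb are highest in the libraries with most marker RNA, while Egr1 is highest in the culture, which has least.

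Heat shock and dissociation stress genes, 15 in all, summed to 3578 to 4322 CPM in the PDGF-B-labelled gliomas, 3627 to 9371 CPM in the EGFRvIII-labelled ones and 5961 CPM in the culture. None was called between the glioma groups (0 by limma, 0 with voom weights and 3 at an unadjusted p under 0.05). Their median log2 fold change was -0.50, with 13 of 15 below 0, beside -1.48e-04 over all genes. Against the culture, Hspa1a and Hspa1b, inducible HSP70 genes of nearly the same sequence that share reads, were called higher by limma in both glioma groups, and Hspb1 in the EGFRvIII-labelled ones. Of all genes, 9.45% were called by limma for the PDGF-B-labelled gliomas and 9.55% for the EGFRvIII-labelled ones, in either direction. With voom weights, 0 of the 15 were called for the PDGF-B-labelled gliomas and 2 for the EGFRvIII-labelled ones. Hspa1a was at 49.7, 44.4 and 65.4 CPM in the PDGF-B-labelled gliomas, 243, 256 and 69.8 CPM in the EGFRvIII-labelled ones and 0.538 CPM in the culture. Among the gliomas EGFRvIII replicate 2 had the most heat shock RNA, the most microglial RNA and the most Atf3, Junb and Ier2. The part of dissociation stress in the 9 genes was not tested.

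Most other cell type markers gave no call. Between the glioma groups, 3.35% of all genes were called by limma and 16.7% had an unadjusted p under 0.05. By limma 0 of 8 endothelial, 0 of 9 mural and fibroblast, 0 of 11 neuronal and 0 of 2 measured lymphocyte markers were called between the glioma groups, as by voom weights, and 5, 1, 2 and 2 of them had an unadjusted p under 0.05. In the PDGF-B-labelled against the EGFRvIII-labelled gliomas, endothelial markers (Flt1 and Kdr most abundant, Cldn5, Cdh5 and Tie1 at 0 reads in the culture) summed to 4.95 to 20.3 against 18.8 to 32.3 CPM. Mural and fibroblast markers (Col1a1 and Tagln most abundant, Kcnj8 and Vtn at 0 reads in the culture) summed to 7.06 to 19.98 against 11.5 to 22.9 CPM, and neuronal markers (Gad1 and Snap25 most abundant) to 153 to 303 against 129.7 to 205 CPM. The lymphocyte markers Cd4 and Lck summed to 0.909 to 3.45 against 1.02 to 10.0 CPM, with Cd4 at 0 reads in PDGF-B replicate 2. Astrocyte markers (Slc1a2 and Slc1a3 most abundant, Gjb6 at 0 reads in the culture), of which 1 of 10 was called higher in the PDGF-B-labelled gliomas, summed to 1724 to 2451 against 1401 to 1491 CPM. Glioma cell and oligodendrocyte precursor markers (Pdgfra and Olig1 most abundant) summed to 6396 to 11999 against 4869 to 5386 CPM and to 3656 CPM in the culture, and 2 of 10 were higher in the PDGF-B-labelled gliomas.

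The genes whose log2 CPM followed each member most closely were sought among 10639 genes with a mean of at least 10 CPM over the 7 libraries. Atf3 was followed by Tmem268, Arrb2 and Gal3st4 (Pearson's r 0.989 to 0.988), Junb by Spp1, Capn10 and Txndc11 (0.977 to 0.973) and Ier2 by Zfp385a, Oxa1l and E2f4 (0.988 to 0.965). Egr1 was followed by Med25, Ltbp1 and Plcd4 (0.962 to 0.950), Jun by Pigc, Ap3d1 and Usf1 (0.982 to 0.963), and Fosb by Homer2, Ccdc174 and Txlna (0.958 to 0.929). Fos was followed by D230025D16Rik, Lrch4 and R3hcc1l (0.920 to 0.914), Nr4a1 by Pcdhga10, Pcdhgb7 and Dnajc16 (0.960 to 0.895), and Jund, after its identical entry, by Phyhd1 and Rab4b (0.929 and 0.922).

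Over the 6 gliomas alone, Atf3 was followed by the immediate early gene Ier5, by Jak3 and by Psen2 (0.998 to 0.993). Ier2 was followed by Socs3, a cytokine feedback gene, Ccl12 and Hcar2 (0.996 to 0.994), and Junb by Csf2rb2, Spp1 and the immediate early phosphatase gene Dusp1 (0.986 to 0.981). Fos was followed by D230025D16Rik, Phlda1 and Txndc11 (0.965 to 0.940), and Fosb by Homer2, Pik3r4 and Apex2 (0.958 to 0.945). Jun was followed by Pigc, Ap3d1 and Pcdhb5 (0.989 to 0.976), and Egr1 by Rab10os, Peg13 and Chpf2 (0.960 to 0.936). Nr4a1 was followed by Pcdhga10, Coq10a and Gpatch2l (0.982 to 0.968), and Jund, after its identical entry, by Sall2 and Supt5 (0.978 and 0.964). These are the highest of 10639 values of r for each member over few libraries, and the points share the difference between groups.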

How the data were processed

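RNA-seq libraries (sequenced by BGISEQ-500, per the labels' protocols, which name both poly(A) selection and rRNA depletion without saying which was used) gave 1 table each of 17422 Ensembl genes. The deposited values are log2 CPM; per the submitters' processing notes STAR, edgeR and the build mm10 were used, with versions and counting options not given in the sources used here. Every library shares 1 lowest deposited value, which fits a log2 CPM with a prior count of 2. CPM was taken as 2 to the deposited value minus that floor, and reads were recovered from each library's step between low values. All low values fell on steps of 0.01 reads within 0.001. Of all values above 0 in a library, 36.3 to 38.6% were whole within 0.02 reads, so the reads are estimated counts. The limit that 0 reads allows covers counting error only.

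Differences were tested on the deposited log2 values with limma 3.58.1 in R 4.3.3 (trend and robust options), Benjamini-Hochberg adjusted over all 17422 genes, two-sided. The glioma comparison used the 6 gliomas, and those with the culture a fit of all 7 libraries. The 3 gliomas of a group are separate tumours per the labels, and the culture has no replicate. Scripts were tested on simulated data. Lengths and positions came from GENCODE M21 (GRCm38), and promoters from RefSeq. Alternatives were other pseudocounts, scalings, filters, voom weights on recovered reads, a replicate block and leaving out each library. The members and all gene lists were chosen with earlier results of these data known. All 9 members were named, and of other lists the called genes (up to 4 per direction with the smallest p), or the most abundant where none was called. For the list of further AP-1 family genes, counts and medians are not reported here. The genes likest each member were the 3 of highest r.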

Additional observations from a re-analysis of the deposited data

Results flagged for a closer look

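Atf3 was flagged because its change against the culture differed between the glioma groups: it was 1.02 ± 0.56 (log2, SE) in the PDGF-B-labelled gliomas and 4.04 ± 0.56 in the EGFRvIII-labelled ones. The difference of -3.02 ± 0.39 in the fit of all 7 libraries had a limma adjusted p of 0.0265. The culture cancels from it, so it is the comparison of the glioma groups again. Summed microglial markers were 733 to 2594 CPM and 9258 to 19971 CPM in the same groups, and their part in it was not tested.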

How the results depend on the processing

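Of the 9 genes, Atf3 was called between the glioma groups under every other pseudocount, scaling, filter and fit tried, apart from the replicate block and the leave-one-out fits named above, and the EGFRvIII-labelled gliomas differed from the culture in Atf3 alone in all fits run. With the replicate number as a block, 18 genes and 0 members were called between the glioma groups, and Atf3 had a limma adjusted p of 0.0528. Same-numbered gliomas did not deviate together (r 0.185, -0.0445 and -0.107 for numbers 1, 2 and 3), so the numbers were not taken as pairs. Leaving out 1 library gave 4 to 1282 calls in place of 583 and 0 to 1 members between the glioma groups, 854 to 2303 in place of 1647 for the PDGF-B-labelled gliomas against the culture, and 1058 to 1612 in place of 1663 for the EGFRvIII-labelled ones. Against the culture, log2(CPM + 5) gave 1021 calls for the PDGF-B-labelled gliomas, and voom weights gave 553 for these and 721 for the EGFRvIII-labelled ones.

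Signs that turned belonged to changes well inside their SE. For the PDGF-B-labelled gliomas against the culture, Nr4a1 moved to 0.081 with scaling to library totals and Junb to -0.00088 with median-of-ratios size factors. Leave-one-out log2 fold changes ran from -0.890 to 0.129 for Fosb between the glioma groups, and, between the PDGF-B-labelled gliomas and the culture, from -0.073 to 0.397 for Jun, -0.447 to 0.547 for Junb and -0.264 to 0.092 for Nr4a1. For the EGFRvIII-labelled gliomas against the culture they ran from -0.047 to 0.215 for Fos and -0.352 to 0.123 for Ier2. Library totals moved the median of all genes by 0.119 for the PDGF-B-labelled gliomas against the culture. A count of 0 reads allows up to 3, or 0.0818 to 0.0909 CPM, far below each of the 9 genes. The cause of each move was not tested.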

Other observations

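The pair of entries at Jund was 1 of 119 sets of identical rows, which held 240 of the 17422 genes.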
